A study of Mus musculus with 10 samples.

Results

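The 10 genes *Isg15*, *Usp18*, *Mx1*, *Mx2*, *Rsad2*, *Bst2*, *Rtp4*, *Ifi44*, *Xaf1* and *Ddx60* are classic antiviral effectors of the type I interferon response. They were followed by RNA-seq in the neural retinas of light-damaged mice, where they are 10 of the 54532 genes measured. They were chosen by name from the difference between light-damaged and control retinas that earlier work on the same data had shown, so that this difference is described here and not tested. In the light-damaged (LD) retinas, the mean level of each of the 10 was 12.0- to 96.2-fold that in the normal light (NL) retinas, and the lowest LD retina was above the highest NL retina for every one of them. No interferon ligand was measured at more than 3 reads in a retina, whereas *Stat2* and *Irf9*, whose products carry the interferon signal to the nucleus, rose by 2.06 and 2.89 on the log2 scale.

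All retinas came from 2-month-old mice of the BALB/c strain, an albino strain whose eye lacks the pigment that screens light. Mice of both groups were first kept in darkness for 12 hr. The 5 NL retinas then had 200 lux, and the 5 LD retinas had 15000 lux for 1 day. The retinas carry the labels' numbers, NL-1, NL-4, NL-5, NL-7 and NL-8 and LD-1, LD-4, LD-6, LD-7 and LD-8, and the study describes them as biological replicates. The sources used here do not tie each retina to a mouse, so that p-values measure the spread between these retinas. Retinas that shared a mouse would not be independent, and the p-values would then be too small.

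Type I interferons are secreted proteins that signal through a receptor made of IFNAR1 and IFNAR2. The receptor's kinases, JAK1 and TYK2, activate STAT2, which acts with IRF9 in the complex ISGF3. This complex binds a DNA element called ISRE in front of interferon-stimulated genes, whose products then interfere with viral entry, replication and release. In the retina, microglia, Müller glia and neurons can all respond to interferon, and the response also occurs in sterile injury.

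The sequence in front of the effector genes did not enter their choice. RefSeq promoter windows, from 250 bases before to 50 bases after the start of a gene on GRCm38.p6, were matched for 6 of the 10 effectors (*Isg15*, *Bst2*, *Ddx60*, *Rsad2*, *Ifi44* and *Xaf1*). The letters GAAANNGAAA, the core of an ISRE, were searched on both strands and were found in the windows of 4 of these 6 genes. Of all 32851 windows, 1131 hold them (3.44%). The stretches that carry the cores are given from 5′ to 3′ on the strand of the gene, since they show how differently the cores are arranged, and the capitals mark the cores.
Isg15: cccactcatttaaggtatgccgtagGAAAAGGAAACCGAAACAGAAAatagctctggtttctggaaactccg
Bst2: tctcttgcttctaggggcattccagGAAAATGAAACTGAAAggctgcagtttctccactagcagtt
Ddx60: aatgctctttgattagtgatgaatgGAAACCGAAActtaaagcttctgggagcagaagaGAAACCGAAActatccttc
Rsad2: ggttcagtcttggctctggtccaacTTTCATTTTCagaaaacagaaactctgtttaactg

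The *Isg15* stretch lies at chr4:156200850-156200921 on the minus strand and holds 3 cores that overlap one another, between 78 and 57 bases before the start of the gene. *Bst2*, at chr8:71537562-71537627 on the minus strand, has 2 overlapping cores between 130 and 115 bases before its RefSeq start. This start differs from the *Bst2* position that goes with the deposited values, which ends at 71537456. *Ddx60*, at chr8:61928009-61928086 on the plus strand, has the same 10 letters at 53 and again at 19 bases before its start, without overlap. *Rsad2*, at chr12:26456538-26456597 on the minus strand, has 1 core, which reads TTTCNNTTTC because it lies on the opposite strand, at 120 to 111 bases before the start. The arrangement thus ran from 3 fused copies to a single inverted copy, as the plot of motif positions shows.

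**Figure D1:**
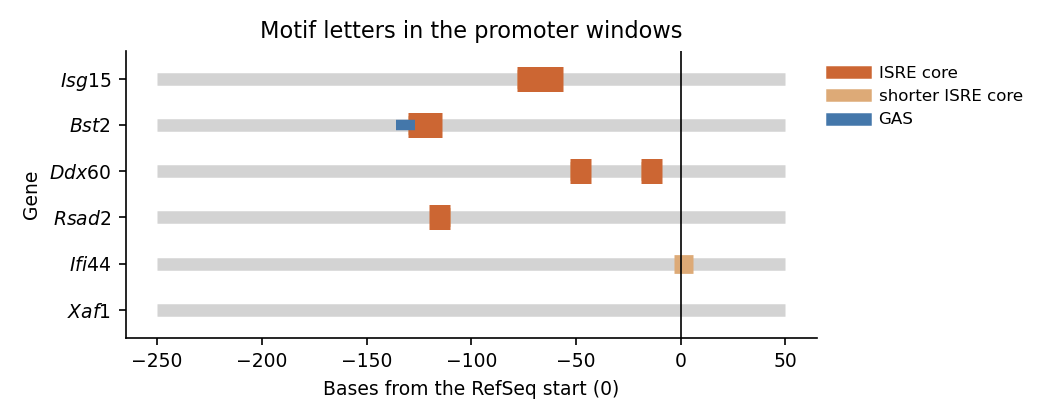
Position of the ISRE core (GAAA, any 2 bases, GAAA), its shorter form and the GAS letters in the 6 effector promoter windows; the x axis gives the distance from the start of the gene in bases, with 1 row per gene. *Isg15*, *Bst2*, *Ddx60* and *Rsad2* hold the full core within 130 bases of the RefSeq start, and *Xaf1* has none of the 3 motifs in its window.

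A shorter core, GAAANNGAA, which is contained in the full core, was present in 5 of the 6 windows and in 8.56% of all windows. It added *Ifi44*, where it spans the start of the gene on the opposite strand. The letters TTCNNNGAA, the core of the GAS element, were found in the *Bst2* window only, where they overlap the first ISRE core, and in 8.30% of all windows. For *Xaf1* these letters are not in the window. A letter match is a description of the sequence and not a site shown to be used.

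The deposited values are FPKM, a count of fragments divided by gene length and library size, which put genes of different length on a common scale. From 18965090 to 26832535 reads were recovered per retina. A fit with limma on log2(FPKM + 0.1) covered the 24508 genes that reached 0.1 FPKM in 5 or more retinas, a filter that all 10 effectors passed. A gene was called when its Benjamini-Hochberg adjusted p was under 0.01 and its change more than 2-fold, which held for 4.13% of genes as higher and 2.37% as lower in LD, and 11.8% of genes had all 5 LD retinas above all 5 NL retinas. Log2 differences are on the log2(FPKM + 0.1) scale, which understates the change of genes with low levels. In 3 pairs, LD-1 with LD-7, LD-4 with LD-6 and NL-5 with NL-7, the retinas resembled each other more than in the other 17 pairs within groups (chi-square of the reads per gene 2.52 to 3.41, against 10.9 to 38.5). Defining markers of rods were high in every NL retina and all 10 were called lower in LD, with a summed level of 10259 to 12503 FPKM in NL and 1594 to 3126 FPKM in LD. In whole retina, fewer cells of a type and less RNA per cell cannot be told apart.

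Among the 10 effectors, 10 were past the threshold for higher expression in LD and 10 had no overlap between the groups. Because they were chosen from this contrast, nothing is read from these counts. Their median log2 difference was 4.58 and ranged from 3.27 for *Ifi44* to 5.96 for *Mx2*, where the median over all genes tested was -0.01. On this log2(FPKM + 0.1) scale, a difference above 16-fold was found for 6 of them and for 47 of the 24508 genes. The choice had no numerical threshold, so there are no members just inside or outside of one.

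**Figure D2:**
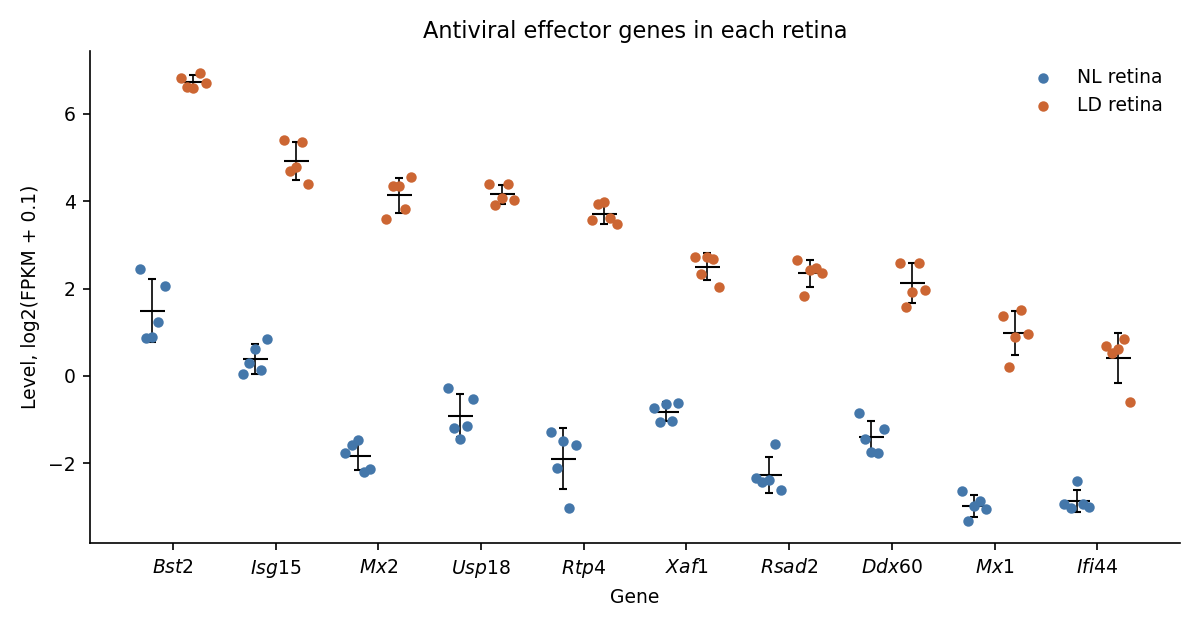
Level of the 10 effector genes as log2(FPKM + 0.1) in each of the 5 NL (blue) and 5 LD (orange) retinas; each point is a retina, and the black line and bars give the group mean and SD of the log2 values. The NL and LD points do not overlap for any gene, and *Bst2* is the highest gene in both groups.

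*Isg15* and *Usp18* belong to the same protein modification cycle. *Isg15* encodes a small ubiquitin-like protein that is attached to other proteins and is also secreted. The gene is on chromosome 4 at 156199424 to 156200818 of GRCm38, on the minus strand, and its level was 0.928, 1.12, 1.43, 0.997 and 1.69 FPKM in NL-1, NL-4, NL-5, NL-7 and NL-8. In LD-1, LD-4, LD-6, LD-7 and LD-8 it was 42.4, 25.6, 27.4, 40.7 and 21.0 FPKM. The lowest LD retina had 12.4-fold the level of the highest NL retina, and LD-1 and LD-7 stood above the other three. The means were 1.23 ± 0.321 and 31.4 ± 9.55 FPKM (SD, n = 5 each), a log2 difference of 4.54 ± 0.22 (SE).

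*Usp18* encodes the protease that removes ISG15 from its targets and that also binds IFNAR2 to damp receptor signalling. It lies on chromosome 6 at 121245906 to 121270917, on the plus strand. Its level was 0.721, 0.337, 0.265, 0.355 and 0.597 FPKM in the NL retinas, in the order above, and 20.8, 14.9, 16.7, 21.0 and 16.3 FPKM in the LD retinas. LD-1 and LD-7 were again the highest, but by a smaller margin than for *Isg15*, and the largest LD value was 1.41 times the smallest. The log2 difference was 5.08 ± 0.22 (SE). The antisense transcript Gm44148 overlaps *Usp18*, with a mean of 0.531 FPKM in NL and 0.482 FPKM in LD, and the strand setting of the counting is not given in the sources used here.

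The genes for enzymes that attach ISG15 form a separate list. Of these 5 conjugation genes, 4 were called higher in limma and *Arih1*, a further ligase of the system, was not (log2 difference -0.02, adjusted p = 0.884). *Uba7*, the activating enzyme, rose from 0.453 ± 0.0489 to 4.84 ± 0.717 FPKM (log2 difference 3.15 ± 0.13 SE, limma adjusted p = 8.97e-08). The conjugating enzyme *Ube2l6* rose by 2.83 (limma adjusted p = 4.13e-07). The ligases *Herc6* and *Trim25* rose by 3.19 (limma adjusted p = 7.51e-08) and 1.81 (limma adjusted p = 1.16e-07).

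*Mx1* and *Mx2* encode dynamin-like GTPases that block the replication of RNA viruses, in the nucleus for mouse MX1 and in the cytoplasm for mouse MX2. Most inbred laboratory strains carry disrupted *Mx* alleles, so that the values are transcript levels and say nothing of protein. The genes lie near each other on chromosome 16, with *Mx1* at 97447035 to 97462907 on the minus strand, *Mx2* at 97535308 to 97560900 on the plus strand and a gap of 72.4 kb between them that holds *Fam3b*. The files list *Mx2* as a polymorphic pseudogene. As paralogs they may share reads, and how such reads were counted is not given in the sources used here.

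*Mx1* had the lowest NL level of the 10 effectors, with 0.0618, 0, 0.0260, 0.0373 and 0.0205 FPKM. These values rest on 12 reads over the 5 retinas (exact Poisson 95% interval 6.20 to 21.0 reads, for counting error only). In the LD retinas *Mx1* was at 2.49, 1.06, 1.75, 2.73 and 1.85 FPKM, from 850 reads, with LD-7 and LD-1 highest and LD-4 lowest. The log2 difference was 3.96 ± 0.26 (SE).

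*Mx2* showed the largest log2 difference of the 10, except at a pseudocount of 1, where *Bst2* did. Its level was 0.194, 0.234, 0.259, 0.117 and 0.129 FPKM in the NL retinas. In the LD retinas it was 12.0, 20.2, 20.4, 14.0 and 23.3 FPKM, so that LD-1 and LD-7 were the lowest and not the highest. The log2 difference was 5.96 ± 0.21 (SE), and the lowest LD retina had 46.4-fold the level of the highest NL retina. The ratio of *Mx2* to *Mx1* accordingly differed between LD retinas, from 4.82 in LD-1 and 5.12 in LD-7 to 11.6 in LD-6, 12.6 in LD-8 and 19.2 in LD-4.

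*Bst2* encodes tetherin, a membrane protein that holds budding virus particles on the cell surface. It is on chromosome 8 at 71534255 to 71537456, on the minus strand. It was at 5.33, 1.72, 1.75, 2.24 and 4.04 FPKM in the NL retinas and at 114, 98.3, 96.7, 122 and 104 FPKM in the LD retinas. The LD values were the most uniform of the 10 genes, with a coefficient of variation of 10.1%, while those of NL varied by 53.2%, with NL-1 and NL-8 above the other three. Its log2 difference was 5.24 ± 0.29 (SE), and by mean level it moved from rank 11228 to rank 225 among the genes tested.

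*Rsad2* encodes viperin, a radical SAM enzyme that turns a nucleotide into a chain terminator of viral RNA synthesis. It lies on chromosome 12 at 26442746 to 26456452, on the minus strand. Its NL levels were 0.0971, 0.0869, 0.0909, 0.239 and 0.0626 FPKM, of which NL-7 stood apart. Its LD levels were 6.19, 3.46, 5.26, 5.42 and 5.06 FPKM, with LD-4 lowest, and the log2 difference was 4.61 ± 0.22 (SE).

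*Rtp4* encodes a membrane protein that helps G protein-coupled receptors to reach the cell surface and is induced by interferon. The gene is at 23520291 to 23614222 on chromosome 16, on the plus strand. It was at 0.307, 0.133, 0.254, 0.0221 and 0.236 FPKM in the NL retinas, where NL-7 rested on 1 read, and at 11.7, 15.3, 15.6, 12.2 and 11.1 FPKM in the LD retinas. LD-4 and LD-6 were the highest, unlike for *Isg15* and *Usp18*. The log2 difference was 5.62 ± 0.30 (SE). *Masp1* overlaps *Rtp4* by 525 bases on the other strand and Gm45338 by 39791 bases on the same strand, and neither exceeded 0.213 FPKM in a retina.

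*Xaf1* encodes a partner of the apoptosis inhibitor XIAP and lies on chromosome 11 at 72301629 to 72313733, on the plus strand. It was at 0.499, 0.382, 0.536, 0.392 and 0.554 FPKM in the NL retinas and at 6.48, 4.96, 6.50, 6.31 and 3.98 FPKM in the LD retinas. It was the most even of the 10 in NL, with a coefficient of variation of 17.1%, and LD-8 and LD-4 were the lowest LD retinas. The log2 difference was 3.31 ± 0.16 (SE).

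*Ddx60* encodes an RNA helicase linked to the sensing of viral RNA, on chromosome 8 at 61928087 to 62038244 on the plus strand. Its level was 0.452, 0.266, 0.199, 0.195 and 0.330 FPKM in the NL retinas and 5.92, 2.86, 3.69, 5.91 and 3.84 FPKM in the LD retinas. LD-1 and LD-7 lay at nearly the same level, 2.07 times that of LD-4, which was the lowest. The log2 difference was 3.53 ± 0.25 (SE).

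*Ifi44*, an interferon-induced cytoplasmic protein, is on chromosome 3 at 151730922 to 151749960, on the minus strand. It was at 0.0305, 0.0230, 0.0884, 0.0307 and 0.0253 FPKM in the NL retinas, from 26 reads in all, and at 1.51, 1.33, 1.43, 1.69 and 0.557 FPKM in the LD retinas. LD-8 was far below the other LD retinas, whose lowest value was 1.33 FPKM, and the largest LD value was 3.03 times the smallest. Its log2 difference was 3.27 ± 0.28 (SE), the smallest of the 10 on this scale. By fold of means *Xaf1* (12.0) and *Ddx60* (15.4) lay below *Ifi44* (32.9), and *Xaf1* was also the lowest under TPM, limma-voom and a pseudocount of 0.01.

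Levels differed more between the effectors than between retinas of a group. In NL, *Bst2* had the highest mean FPKM, followed by *Isg15*, and the ranges over retinas of these 2 genes overlapped neither with each other nor with the next gene, *Xaf1*. From *Xaf1* down to *Mx1*, the ranges of neighbours in the order overlapped. In LD, *Bst2* at 107 ± 10.8 FPKM was followed by a group of *Isg15*, *Mx2*, *Usp18* and *Rtp4*, with means of 13.2 to 31.4 FPKM. *Xaf1*, *Rsad2* and *Ddx60* came next at 4.44 to 5.65 FPKM, and *Mx1* and *Ifi44* last at 1.97 and 1.30 FPKM. Neighbours within these groups overlapped in range, and neighbours across their borders did not. *Mx2* stood below *Rtp4* in NL and above it in LD by mean level. In NL the means were 0.187 and 0.191 FPKM and *Rtp4* was the higher in only 2 of the 5 retinas, so no order of these genes is read there.

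The LD retinas did not have the same order for all effectors. LD-1 and LD-7, which are also 1 of the 3 closest pairs, were the 2 highest LD retinas for 7 of the 10 genes (*Isg15*, *Usp18*, *Mx1*, *Rsad2*, *Bst2*, *Ifi44* and *Ddx60*), where this held for 21.6% of all genes tested. They were the 2 lowest for *Mx2*, as for 20.2% of all genes. LD-8 was the lowest LD retina for 4 effectors, where this held for 17.85% of all genes tested. LD-4 was the lowest for another 4, where this held for 23.99% of all genes tested. On the log2 scale, the median over the 10 effectors was 2.92 in LD-8 and 3.13 to 3.35 in the other LD retinas, against -1.66 to -1.08 in the NL retinas. This median of levels rests on the genes in the middle of the order. As a difference from each gene's own LD mean, the median was 0.25 in LD-1, 0.22 in LD-7 and -0.01 in LD-6. By this measure LD-4 was lowest (-0.20), followed by LD-8 (-0.14). No test was made of this order, since each group has 5 retinas.

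**Figure D3:**
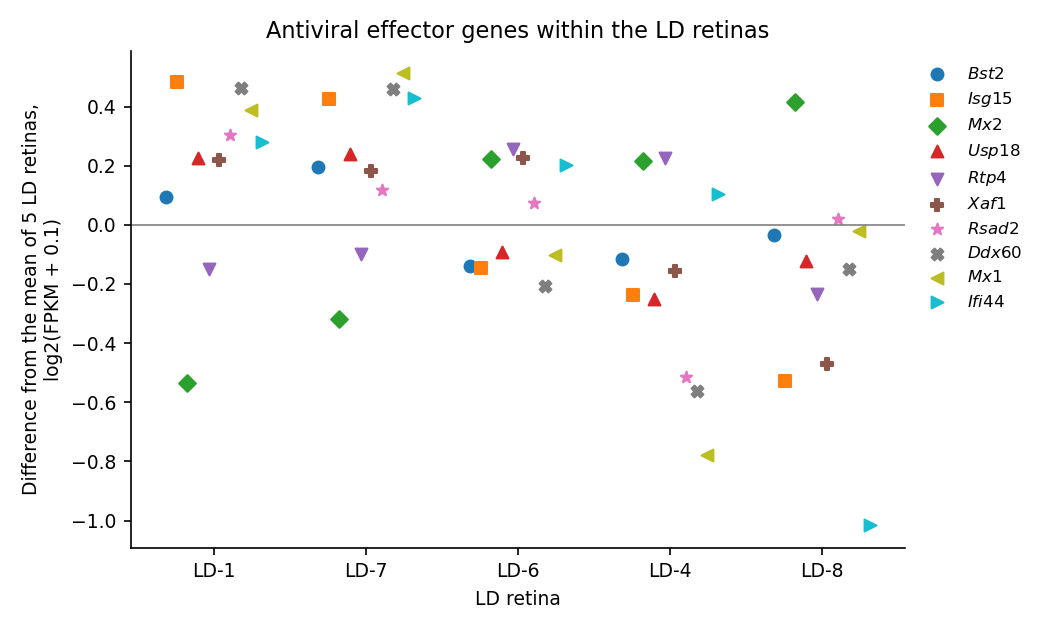
Deviation of each LD retina from the mean of the 5 LD retinas for the 10 effectors, as a log2 difference of FPKM + 0.1. LD-1 and LD-7 are the 2 highest for 7 genes, and *Mx2* shows the opposite order.

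Markers of some cell types also differed between the groups, and their part in the result was not tested. Of 10 microglial markers, 7 were called higher in LD in limma, among them *C1qb* (4.46 ± 1.67 to 20.3 ± 7.62 FPKM, adjusted p = 3.21e-04) and *Itgam* (0.154 ± 0.0187 to 0.658 ± 0.168 FPKM, adjusted p = 1.29e-04). Their summed level was 31.5 to 47.9 FPKM in NL and 58.2 to 141 FPKM in LD. LD-1 and LD-7 had the highest sums, 141 and 120 FPKM, and LD-8 had the lowest. The median of the effector levels was highest in LD-6 (3.35), where the microglial sum was 88.0 FPKM, and was 3.14 in LD-1 and 3.15 in LD-7. In these retinas it is the midpoint of *Rtp4* and *Xaf1*. Taken as a log2 difference from each gene's own LD mean, the effector median was instead highest in LD-1 (0.25) and LD-7 (0.22). It was -0.01 in LD-6, -0.14 in LD-8 and -0.20 in LD-4. NL-1 had the highest sum in its group. It was also the highest NL retina for 5 of the 10 effectors, where this held for 21.2% of all genes tested. The homeostatic marker *P2ry12* went the other way, from 2.03 ± 0.278 to 1.32 ± 0.747 FPKM (log2 difference -0.74), and was not called (limma adjusted p = 0.122). *Tmem119* and *Csf1r*, with log2 differences of 0.22 and 0.74, were not called either. At an unadjusted limma p under 0.05, 8 microglial markers were higher and 1 was lower. The median log2 difference of the 10 markers was 1.16.

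Of 7 monocyte and neutrophil markers, 4 were tested and 2, *Lyz2* and *Plac8*, were called higher, with a summed level of 1.04 to 3.02 FPKM in NL and 6.35 to 12.3 FPKM in LD. The other tested markers of this list, *S100a8* (0.0812 and 0.240 FPKM in NL and LD, limma adjusted p = 0.121) and *S100a9* (0.171 and 0.170 FPKM, limma adjusted p = 0.792), were not called. The monocyte-defining *Ly6c2* had no reads in NL and 4 to 17 reads in each LD retina. *Ccr2* had 0 to 1 reads in NL and 2 to 21 reads in LD, and *Chil3* had 0 to 1 reads in both groups. Of 10 markers of lymphocytes and plasmacytoid dendritic cells, the professional producers of type I interferon, 4 were tested and 0 were called in limma, with 0 at an unadjusted p under 0.05 and 0 under limma-voom on the recovered reads. Their sum was 1.22 to 1.85 FPKM in NL and 0.689 to 1.91 FPKM in LD, and *Ms4a1* had no reads in any retina. Of the 5 cone markers 4 were called lower and of the 5 Müller glia markers 1 (*Glul*). Markers of endothelium, pigment epithelium and lens were called 0 times by limma and by limma-voom. At an unadjusted limma p under 0.05, 1 endothelial and 1 lens marker were higher and 1 pigment epithelial marker was lower. The endothelial sum was 33.3 to 44.1 FPKM in NL and 48.4 to 81.7 FPKM in LD, and that of pigment epithelium 49.7 to 131 FPKM in NL and 55.6 to 107 FPKM in LD. The lens sum was 0.200 to 0.495 FPKM in NL and 0.300 to 0.634 FPKM in LD.

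**Figure D4:**
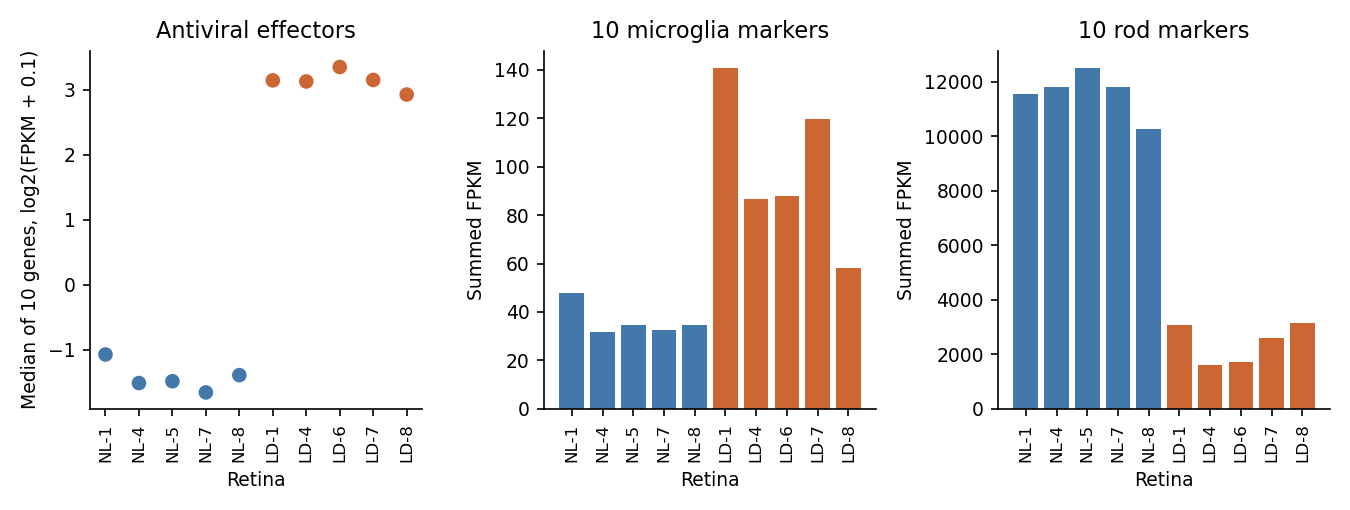
Median level of the 10 effectors, as log2(FPKM + 0.1), and summed FPKM of 10 microglial and 10 rod markers in each NL (blue) and LD (orange) retina, with 1 point or bar per retina. The microglial sum is 31.5 to 47.9 FPKM in NL and 58.2 to 141 FPKM in LD, and the rod sum is 10259 to 12503 FPKM in NL and 1594 to 3126 FPKM in LD.

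The next question was which steps of interferon signalling differed between the groups. Of 59 genes listed for this pathway, 58 were in the table and 37 were tested. LD levels were called higher for 18 and lower for 0 in limma, where 4.13% and 2.37% of all genes tested were. The median log2 difference over the 37 was 0.87. At an unadjusted p under 0.05 limma gave 5 as lower, and limma-voom on the recovered reads called 1 lower. The list was drawn up with earlier results of these data known. The LD and NL ranges did not overlap, with LD higher, for 23 of the 37 tested genes, among them the 18. This held for 11.8% of all genes tested. The two-sided exact permutation p of the 18 was 0.00794, the smallest that 5 against 5 retinas allow. *Jak1*, *Irf3*, *Irf4*, *Mavs* and *Pias1* had this exact p too, in the lower direction, and were not called.

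The ligands were at or near the limit of detection. Of 21 ligand genes, 18 of them type I interferons, 13 had no read in any retina and none had more than 3 reads in a retina. *Ifnb1*, the type I interferon that many cell types make first, had 3 reads in LD-7 (0.176 FPKM) and 0 in the other 9 retinas. A count of 0 allows up to 3 reads, which for *Ifnb1* is 0.155 to 0.197 FPKM depending on the retina. Differences in the ligands were therefore not detectable at this depth, which does not show that they were absent, and reads shared among the near-identical *Ifna* genes may not have been assigned.

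Of the 6 receptor subunits, 2 were called higher. *Ifnar2*, the subunit that *Usp18* protein binds, rose from 2.05 ± 0.306 to 4.62 ± 1.07 FPKM (log2 difference 1.12 ± 0.16 SE, limma adjusted p = 4.41e-04), and was below 2-fold at a pseudocount of 1. Its partner *Ifnar1* was at 10.5 ± 0.729 and 11.1 ± 0.410 FPKM (log2 difference 0.08 ± 0.05 SE, limma adjusted p = 0.332). *Ifnlr1*, the receptor chain for interferon lambda, rose from 0.0616 ± 0.0397 to 0.313 ± 0.121 FPKM (limma adjusted p = 0.00374). This call was lost without any of LD-4, LD-6, LD-7, NL-1, NL-4 or NL-8, with an adjusted p of up to 0.0124, and when the closest pairs were averaged (0.0315). The log2 difference, 1.34 with all retinas, was 1.21 to 1.33 in these cases.

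The receptor kinases were not called, and transcription factors below them were called higher. *Jak1*, *Jak2* and *Tyk2* had log2 differences of -0.07, 0.11 and 0.03 and were not called. *Stat2* rose from 12.8 ± 0.739 to 54.2 ± 5.91 FPKM (2.06 ± 0.07 SE, limma adjusted p = 4.19e-08), and *Irf9* from 4.78 ± 0.675 to 36.0 ± 3.60 FPKM (2.89 ± 0.10 SE, limma adjusted p = 3.25e-08). LD-1 and LD-7 were the highest LD retinas for *Irf9* (38.6 and 40.8 FPKM), as for 7 of the effectors.

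Of the 8 interferon regulatory factors in the list, 4 were called higher. *Irf7*, the factor that amplifies interferon production, rose from 2.41 ± 0.773 to 37.4 ± 11.2 FPKM (log2 difference 3.90 ± 0.27 SE, limma adjusted p = 3.01e-06). Its LD values were 22.8, 46.3, 45.6, 28.0 and 44.4 FPKM, lowest in LD-1 and LD-7, an order that *Mx2* shared and *Isg15* did not. *Irf1* rose by 3.52 (limma adjusted p = 8.29e-07), *Irf8*, a factor of myeloid cells, by 3.24 (limma adjusted p = 1.67e-07) and *Irf5* by 1.29 (limma adjusted p = 1.43e-04). *Irf3*, the constitutive sensor-activated factor, was not called, at 22.0 and 17.7 FPKM on average in NL and LD.

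Among 6 tested adaptors and kinases that lead to interferon production, *Myd88* rose by 1.96 (limma adjusted p = 6.04e-06) and *Tmem173*, which encodes STING, by 1.17 (limma adjusted p = 0.00115). The second call was lost when the 3 closest pairs were averaged (adjusted p = 0.0181). *Ticam1* rose by 0.85 (limma adjusted p = 2.62e-04), which is under the 2-fold minimum, and was not called. *Mavs*, *Tbk1* and *Ikbke* were not called either, with log2 differences of -0.32, 0.09 and 0.55. Of 6 brakes of JAK-STAT signalling, 3 were called higher. *Socs3*, the feedback inhibitor of gp130 cytokines, rose from 2.12 ± 0.304 to 51.0 ± 19.0 FPKM (4.46 ± 0.22 SE, limma adjusted p = 3.21e-07). *Socs1*, the feedback inhibitor of interferon receptors, rose by 3.10 (limma adjusted p = 1.57e-06) and the phosphatase *Ptpn6* by 1.52 (limma adjusted p = 3.06e-04), the latter lost when the closest pairs were averaged (adjusted p = 0.0104). With a pseudocount of 1, *Irf5*, *Tmem173*, *Ptpn6* and *Ifnlr1* stayed under 2-fold and were not called. The uncalled genes of the pathway had log2 differences of -0.77 to 0.87. Of the 16 called genes with a promoter window, 3 (*Stat2*, *Myd88* and *Socs1*) held the full ISRE core, and of the 16 tested but not called 1 (*Irf2*) did. Of the 20 ligand genes with a window, none of which was tested, 11 held it, all of them interferon alpha genes.

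**Figure D5:**
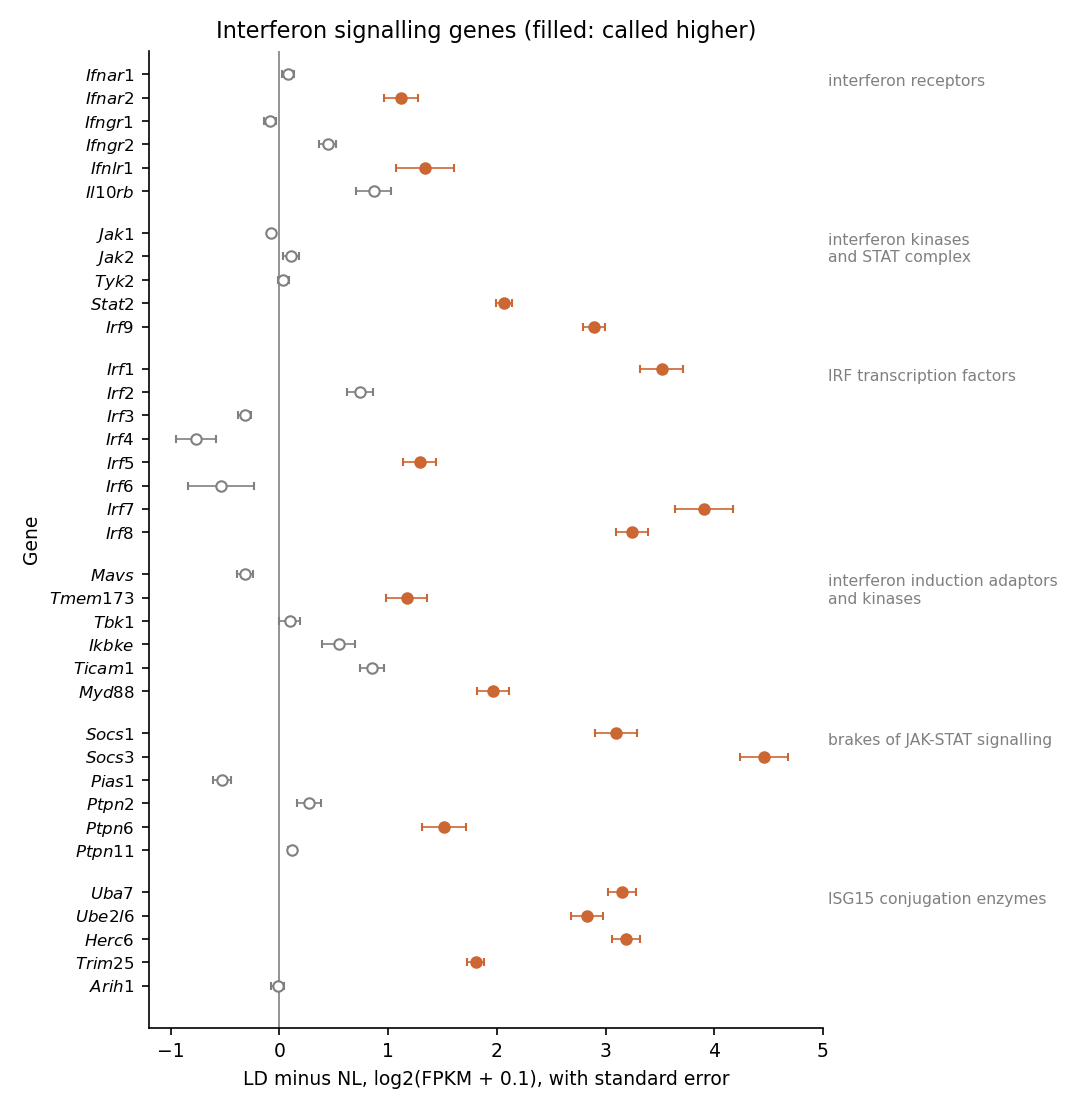
Log2 difference LD minus NL of tested genes of interferon signalling, grouped by role, with limma standard errors as bars; filled points mark genes called higher. *Stat2*, *Irf9*, *Irf7* and *Socs3* lie above 2, and the receptor kinases lie near 0.

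The genes beside the effectors were examined next. The nearest protein-coding genes on both sides of each effector gave 19 genes, of which 14 were tested, with a median log2 difference of 0.36. In limma 5 were called higher and 0 lower, where 4.13% and 2.37% of all genes tested were. At an unadjusted p under 0.05 limma gave 2 as lower, and limma-voom called 0 lower. Around *Isg15*, *Agrn* (1.94 kb away) rose from 25.1 ± 2.33 to 112 ± 54.6 FPKM (limma adjusted p = 3.37e-04), and AW011738 (2.49 kb away) by 1.35 (limma adjusted p = 0.00171). *Cmpk2*, a nucleotide kinase that is itself interferon-induced and lies 12.8 kb from *Rsad2*, rose by 2.04 (limma adjusted p = 2.26e-06). *Tmprss2*, 3.78 kb from *Mx2*, rose from 0.0101 ± 0.0126 to 0.291 ± 0.0591 FPKM (limma adjusted p = 3.58e-05), a call lost at a pseudocount of 1, and was at most 0.372 FPKM in a retina. *Ccdc194*, 8.54 kb from *Bst2*, rose by 2.76 (limma adjusted p = 0.00368), a call lost without LD-7, NL-5 or NL-7 (adjusted p up to 0.0115) and when the closest pairs were averaged (0.0487). Next to *Usp18*, *Mx1*, *Rtp4*, *Ifi44*, *Xaf1* and *Ddx60*, no tested gene was called.

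The genes most like the effectors were found from the average centred profile of the 10, by root mean square log2 difference over the 10 retinas, among the 12680 protein-coding genes that reached a group mean of 1 FPKM. The nearest was *Ifit3*, another interferon-stimulated gene that binds viral RNA complexes, at 0.178, with mean levels of 3.91 ± 0.796 and 100.2 ± 7.96 FPKM. *Socs3* at 0.236, *Oasl2* at 0.236, the cytokine gene *Lif* at 0.261 and *Gm4951* at 0.265 followed. Among the effectors themselves, *Isg15* lay closest to the average at 0.287 and *Mx2* farthest at 0.850. The order of likeness is dominated by the NL to LD difference that the effectors were chosen for, so it is given as a description.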

How the data were processed

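RNA-seq was done on 5 NL and 5 LD neural retinas, grouped by their labels. The 10 effectors and all gene lists were chosen with earlier results of these data known. The authors deposited FPKM values for 54532 genes, 36402 of them above 0 in a retina. The submitters' processing notes name TopHat2 2.0.9, Bowtie2 2.0.6 and mm8 without roles, but 53499 gene positions equal those of GENCODE M21 on GRCm38, including all 10 effectors. The counting program and its strand setting are not given in the sources used here. The labels and the study's methods differ on the sequencing instrument.

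FPKM times gene length gave whole reads (tolerance 0.01 reads) for all values, 21343389 to 26832535 per NL retina (median 22053437) and 18965090 to 23378090 per LD retina (median 21375137). The library size used by the authors was this sum times 0.951 to 0.968 in NL and 1.04 to 1.07 in LD. log2(FPKM + 0.1) of the 24508 genes with at least 0.1 FPKM in 5 retinas was fitted in limma 3.58.1 (R 4.3.3) with a trend and Benjamini-Hochberg adjustment, and tested on simulated data. Two-sided exact permutation tests used scipy 1.17.1, with numpy 2.4.6, pandas 2.3.3, matplotlib 3.10.9 and Python 3.11.15. Chi-squares compared recovered reads between retinas. Intervals and floors cover counting error only.

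Genes named were all effectors, tested genes of the signalling list (the type I ligands, receptors, *Stat2*, *Irf9* and *Irf7* whatever they did), called neighbours, the 5 most similar protein-coding genes and markers by list. A few genes were named beyond this, such as *Ifi44l*, after their values were seen. Some values are not reported here, although the counts of the list include them. Alternatives changed the pseudocount (1 or 0.01), the filter (none or 1 FPKM), the scaling, the trend, the test (limma-voom with TMM on recovered reads), the threshold, the replicate block, the averaging of the closest pairs, and the retinas included.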

Additional observations from a re-analysis of the deposited data

Results flagged for a closer look

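Of 76 groups of 5 retinas examined for a value that stood apart by Dixon's test at the 95% level, 3 had one, where chance gives about 1 in 20, or 3.8. *Rsad2* in NL-7 was at 0.239 FPKM (22 reads), with the other NL retinas at 0.0626 to 0.0971 FPKM. *Ifi44* in NL-5 was at 0.0884 FPKM (11 reads), with the others at 0.0230 to 0.0307 FPKM. *Tmprss2* in NL-1 was at 0.0320 FPKM (5 reads), with the others at 0 to 0.00675 FPKM. All 3 are in control retinas at low levels, and no LD retina of an effector stood apart by this test.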

How the results depend on the processing

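Over all genes, 1595 were called, 816 with a pseudocount of 1 and 1076 when the closest pairs were averaged. With the replicate block among the retinas with shared numbers the count was 815. At an adjusted p under 0.05 with no minimum fold it was 6818. Leaving out each retina in turn gave 1386 to 1609. The signalling genes called higher numbered 18, and 15 when the closest pairs were averaged. They numbered 13 (pseudocount 1) to 24 (adjusted p under 0.05) over the alternatives and 17 to 18 without a retina. Those called lower numbered 0, 1 under limma-voom (*Irf4*), 4 at an adjusted p under 0.05 and 0 without each retina. Neighbours called numbered 5, 3 with the replicate block, 7 at an adjusted p under 0.05 and 4 to 5 without a retina. The median of the effectors, 4.58, became 5.34 after rescaling to TPM, 5.32 under limma-voom, 5.33 with a pseudocount of 0.01 and 3.00 with a pseudocount of 1, and 4.48 to 4.67 without a retina. A filter of 1 FPKM left out *Ifi44*. No direction was reversed. For the 28 other named genes, 614 of 640 values kept their call and 26 lost it, among them *Ifnlr1* 10 times and *Ccdc194* 6 times. The cause of these changes was not tested, apart from the pseudocount, which by construction shrinks low genes.

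Same-numbered NL and LD retinas did not deviate together from their group means (correlations 0.06, 0.07, -0.01 and -0.09 for numbers 1, 4, 7 and 8). These correlations cannot tell whether same-numbered retinas shared an origin or a batch, which the sources used here do not give.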

Other observations

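*Ifi44l*, 8.78 kb from *Ifi44* and named after its values were seen, had no read in any NL retina or in LD-1, LD-7 and LD-8, where a count of 0 allows up to 3 reads per retina (0.0845 to 0.108 FPKM). It had 33 reads in LD-4 (1.18 FPKM) and 61 reads in LD-6 (1.98 FPKM), which are 1 of the 3 closest pairs of retinas. Its neighbour *Ifi44* had reads in all 5 LD retinas, at 1.33 FPKM in LD-4 and 1.43 FPKM in LD-6. Such an all-or-none difference within LD was not tested.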
